A study of Mus musculus with 49 samples.

Results

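The 10 genes described here mark T cells and natural killer (NK) cells: Cd3e, Cd3d, Cd3g, Cd8a, Cd4, Cd2, Lck, Nkg7, Gzma and Gzmb. They were taken by symbol from a table of 45252 genes, in which all 10 were listed. The table holds RNA-seq counts from the neocortex of 49 mice, with 1 library per mouse, on a background that mixes C57BL/6J and C3H/HeJ. The question was whether lymphocytes enter the cortex of rNLS8 mice and whether immunization matters for that. Bigenic rNLS8 mice carry NEFH-tTA and tetO-hTDP43∆NLS, so that a neurofilament promoter drives a human TDP-43 that lacks its nuclear localization signal, in neurons, once doxycycline is withdrawn. Monogenic controls carry only the tetO-hTDP43∆NLS allele and have no driver.

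The 17 ctrl-PBS mice (10 females, 7 males) were monogenic and received PBS. The 10 TDP-PBS mice (4 females, 6 males) were bigenic and received PBS. The 10 TDP-10+12 mice (6 females, 4 males) were bigenic and received peptides 10 and 12 of TDP-43 together, and the 12 TDP-15 mice (5 females, 7 males) were bigenic and received peptide 15. The immunized mice were given 40 µg of ovalbumin-coupled peptide with CpG oligonucleotide and Alhydrogel from 8 weeks of age, and PBS replaced the conjugate in the other groups. Effects of the peptide and of ovalbumin cannot be told apart in these groups. In all 4 groups doxycycline was removed at 25.5 weeks, and the mice were perfused with cold PBS and sampled at 28.5 weeks, 3 weeks after induction.

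T cells recognize antigen through a receptor whose signal is passed on by the CD3 chains, with CD4 on helper cells and CD8 on cytotoxic cells as co-receptors and the kinase LCK as the first enzyme of the cascade. NK cells lack that receptor and share with cytotoxic T cells a set of granules that hold granzymes and NKG7. In healthy brain tissue both cell types are rare and sit mostly in the meninges and the choroid plexus, while chemokines such as CXCL10 and CCL5, which glia can make, draw cells with the matching receptors. In whole-tissue RNA, fewer cells of a type and less RNA per cell cannot be told apart.

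Total counts lay between 17775738 and 21033608 per mouse (median 19955601), at which 3 counts equal 0.139 to 0.165 CPM, the counts scaled to a common library total with TMM factors. The neuron gene Slc17a7 was counted in all 49 mice, with at least 28262 counts. Marker genes of neighbouring regions varied between mice: the striatal gene Ppp1r1b ranged from 2816 to 13527 counts, the choroid plexus gene Ttr from 75 to 31218 and the olfactory gene Omp from 0 to 333. Pieces of those regions in the samples are a possible cause that was not tested. At this depth the members fell into 2 classes. Cd4 and Lck passed the filter on low counts and were tested among 18220 genes. The other 8 stayed under it, with at most 13 counts in any mouse. A count of 0 at this depth shows only that the gene was not detectable there.

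Levels per kilobase of exon make the members comparable with each other. In ctrl-PBS the mean level was 4.88 RPKM (CPM divided by the exon length in kilobases) for Cd4 and 0.580 for Lck, against 0 to 0.0657 for the other 8. In the rNLS8 groups Cd4 lay at 2.14 (TDP-PBS), 1.92 (TDP-10+12) and 1.61 (TDP-15), Lck at 0.895, 0.942 and 0.883, and none of the other 8 above 0.186. Cd4 and Lck were therefore present without a matching level of the CD3 chains, which T cells need to place their receptor on the surface. Cd3e, the best counted CD3 chain in ctrl-PBS, had a mean level of 0.0194 RPKM there.

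The 3 CD3 genes lie close together on chromosome 9, Cd3g at chr9:44969572-44980431, Cd3d at chr9:44981769-44987052 and Cd3e at chr9:44998735-45009663 (GRCm38.p6). Cd3e was counted in 11 of 17 ctrl-PBS mice and 18 of 32 rNLS8 mice. Its lowest, median and highest counts were 0, 1 and 7 in ctrl-PBS, 0, 1 and 2 in TDP-PBS, 0, 1 and 8 in TDP-10+12 and 0, 0.5 and 5 in TDP-15. The groups overlapped fully, with means of 0.0793 ± 0.100 CPM in ctrl-PBS (SD, n = 17) and 0.0638 ± 0.0859 in rNLS8 (SD, n = 32). Annotated antisense genes overlap Cd3e and the strand setting of the counting is not given in the sources used here, so its counts may include theirs.

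Cd3d was the rarest CD3 gene, with 2 counts in 1 of 17 ctrl-PBS mice and 16 counts in 8 of 32 rNLS8 mice. It reached 2 counts in TDP-PBS, 2 in TDP-10+12 and 6 in TDP-15, and its median was 0 in all 4 groups. Cd3g had 5 counts in 4 ctrl-PBS mice and 48 counts in 13 rNLS8 mice. Its median was also 0 in every group, while the highest mouse had 2 counts in ctrl-PBS, 3 in TDP-PBS, 4 in TDP-10+12 and 8 in TDP-15. In TDP-15 the mice fell apart into 7 with no count and 5 with 4 to 8 counts, all 5 higher than the control maximum.

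**Figure D1:**
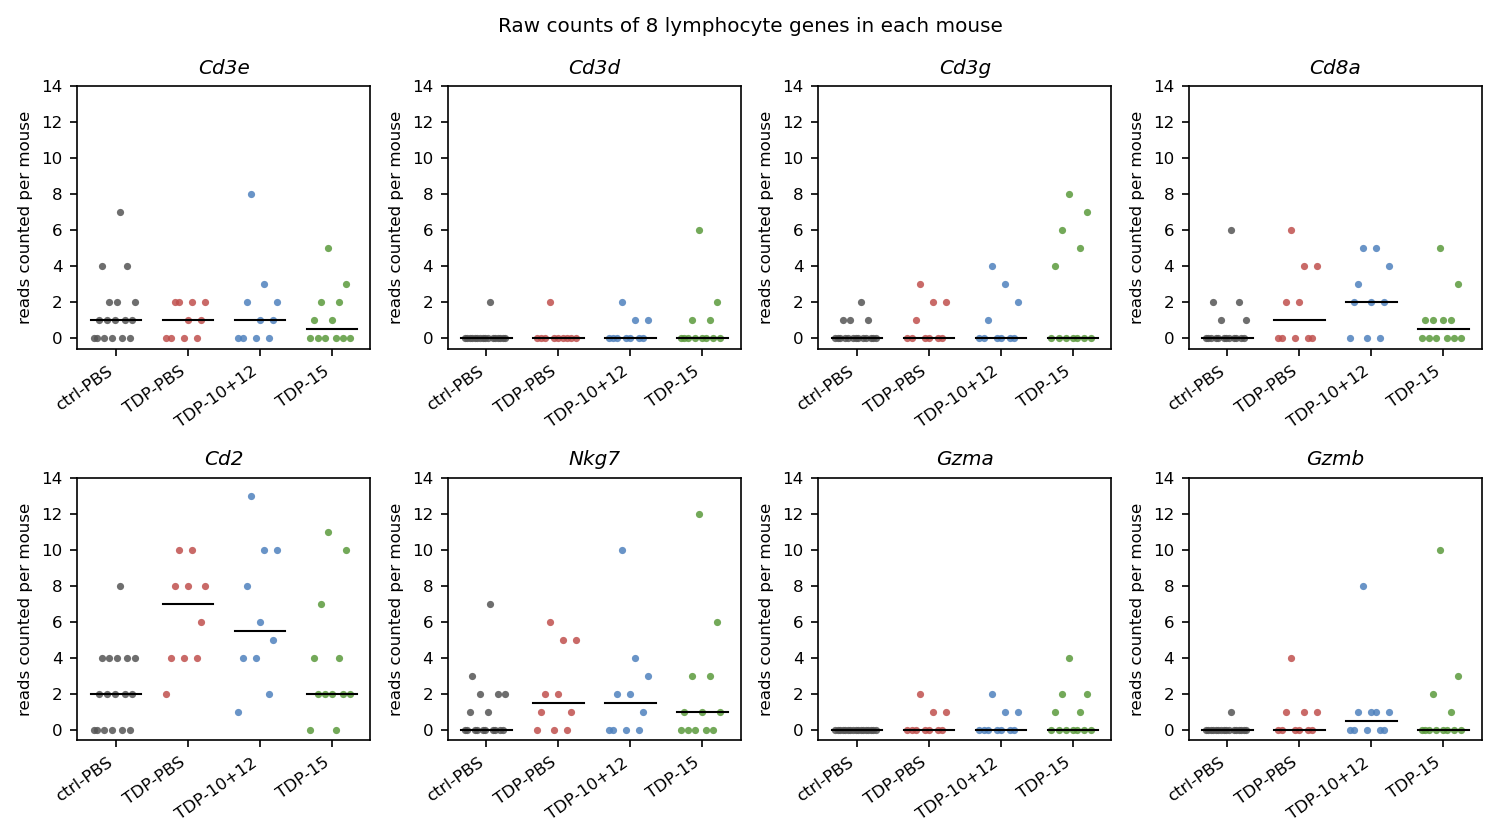
Counts of the 8 members under the filter, per mouse (points) in the 4 groups, with the group median (line). The y axis is the number of reads counted, on 1 scale for all panels. Apart from Cd2, most points sit at 0 to 4 in every group, Gzma is at 0 in all ctrl-PBS mice, and single mice reach 8 to 13.

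Cd8a, the chain that marks cytotoxic T cells (chr6:71373427-71379171), was counted in 5 of 17 ctrl-PBS mice and 18 of 32 rNLS8 mice. The lowest, median and highest counts were 0, 0 and 6 in ctrl-PBS, 0, 1 and 6 in TDP-PBS, 0, 2 and 5 in TDP-10+12 and 0, 0.5 and 5 in TDP-15. Ctrl-PBS mouse 131 alone held 6 of the 12 control counts, and no rNLS8 mouse had more CPM. The same mouse had the highest count of the olfactory gene Omp (333), and the part of that tissue in its Cd8a count was not tested. Cd8b1, the other CD8 chain, was counted in 7 of 17 ctrl-PBS mice and 19 of 32 rNLS8 mice.

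Cd4, which encodes the helper T cell co-receptor (chr6:124864693-124888247), fell in rNLS8 mice. Its lowest, median and highest counts were 34, 395 and 706 in ctrl-PBS, 71, 162 and 306 in TDP-PBS, 79, 138.5 and 317 in TDP-10+12 and 69, 131 and 188 in TDP-15. The ctrl-PBS mean was 19.7 ± 9.12 CPM (SD, n = 17), against 8.62 ± 3.75 (SD, n = 10), 7.75 ± 3.90 (SD, n = 10) and 6.49 ± 1.997 (SD, n = 12). The ranges overlapped, and ctrl-PBS mouse 71, with 34 counts, lay below every rNLS8 mouse. Ctrl-PBS mice 343, 99, 181 and 84, at 8.95 to 14.4 CPM, also lay below the highest rNLS8 mouse, TDP-PBS mouse 270 at 14.7 CPM. The log2 fold change against ctrl-PBS was -1.19 (SE 0.268, adjusted p = 0.000257) in TDP-PBS, -1.34 (SE 0.271, adjusted p = 5.77e-05) in TDP-10+12 and -1.60 (SE 0.257, adjusted p = 8.45e-07) in TDP-15, and -1.38 (SE 0.189, adjusted p = 1.64e-08) for the mean of the rNLS8 groups (edgeR's quasi-likelihood test, Benjamini-Hochberg over 18220 genes). Calls of lower expression covered 21.6%, 20.0%, 23.2% and 27% of all genes tested in these 4 comparisons. By the study's methods, littermates were spread over the immunization cohorts at random with the sexes balanced. The litter of each mouse is not given in the sources used here, and the p-values measure the spread between mice as sampled.

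The genes closest to Cd4 across mice were those of striatal neurons. In the 17 ctrl-PBS mice the 5 tested genes with the highest Spearman correlation with Cd4 were Ppp1r1b (0.97), Rasd2 (0.97), Syndig1l (0.97), Lrrc10b (0.97) and Scn4b (0.96). In the 32 rNLS8 mice they were Ppp1r1b (0.84), Lrrc10b (0.83), Rasd2 (0.83), Scn4b (0.82) and Adora2a (0.82). These are descriptions of likeness over the same libraries, picked as the highest of all genes. Ppp1r1b encodes DARPP-32, an integrator of dopamine signals, and Adora2a an adenosine receptor of striatal neurons. Of 12 striatal genes listed after Cd4 was seen to follow them, 0 were higher and 4 lower in the rNLS8 mean, against 27.1% and 27% of all genes, with a median log2 fold change of -0.27 beside 0.00148 over all genes tested, and their summed level spanned 459 to 2327 CPM in ctrl-PBS and 627 to 2525 CPM in rNLS8. With the mean level of these 12 genes as a covariate in edgeR, the Cd4 log2 fold change was -0.98 (SE 0.102, adjusted p = 8.16e-12) for the rNLS8 mean. The 12 genes were picked for their likeness to Cd4 in these same libraries, and 4 of them were themselves lower in rNLS8. This fit therefore cannot show how much of the Cd4 difference goes with striatal tissue, which was not tested.

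**Figure D2:**
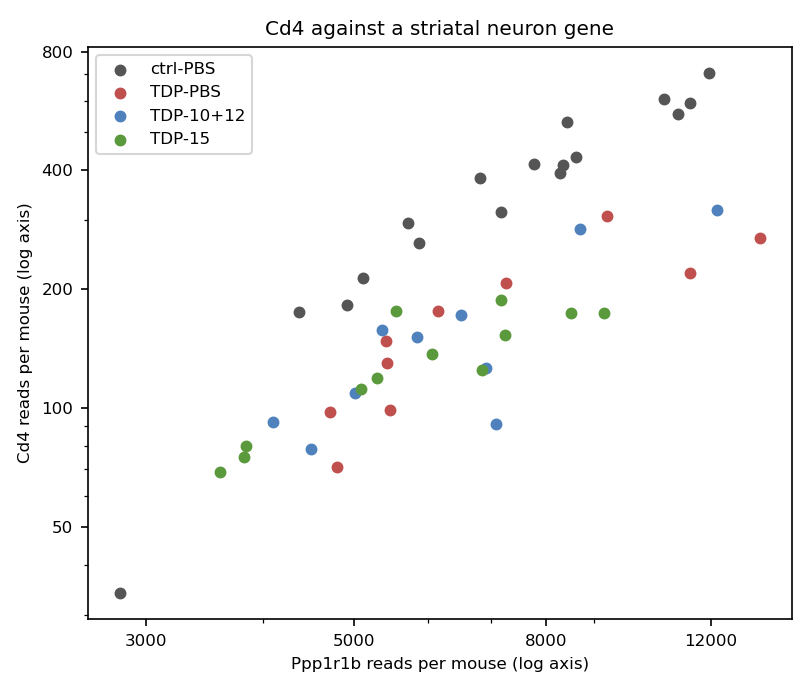
Cd4 counts (y axis, log) against counts of the striatal gene Ppp1r1b (x axis, log), 1 point per mouse, coloured by group. Cd4 climbs with Ppp1r1b from 34 to 706 counts in ctrl-PBS, and most rNLS8 mice lie below the ctrl-PBS mice of like Ppp1r1b count.

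Lck, the kinase next to the T cell receptor (chr4:129548344-129573641), rose in rNLS8 mice. Its lowest, median and highest counts were 10, 31 and 58 in ctrl-PBS, 39, 49.5 and 73 in TDP-PBS, 33, 57.5 and 79 in TDP-10+12 and 29, 52 and 71 in TDP-15. The means were 1.70 ± 0.741 CPM (SD, n = 17), 2.62 ± 0.529 (SD, n = 10), 2.76 ± 0.572 (SD, n = 10) and 2.58 ± 0.721 (SD, n = 12). The groups overlapped, and in CPM 9 of 32 rNLS8 mice exceeded the highest ctrl-PBS mouse. The log2 fold change was 0.63 (SE 0.185, adjusted p = 0.00479) in TDP-PBS, 0.70 (SE 0.184, adjusted p = 0.00170) in TDP-10+12, 0.60 (SE 0.176, adjusted p = 0.00387) in TDP-15 and 0.64 (SE 0.145, adjusted p = 0.000172) in the rNLS8 mean, by the same edgeR test. Calls of higher expression covered 21.9%, 20.8%, 23.6% and 27.1% of all genes tested and 1 of the 2 members tested did. The 3 comparisons of single rNLS8 groups share the 17 ctrl-PBS mice. The tested genes most like Lck over the 32 rNLS8 mice were Top1mt (0.77), Txndc5 (0.67), Gm12854 (0.66), Gmnn (0.66) and Phax (0.65), none of them a T cell gene of the lists used here. Only 14 of 34 listed T cell receptor pathway genes passed the filter, so the others could not appear among them.

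**Figure D3:**
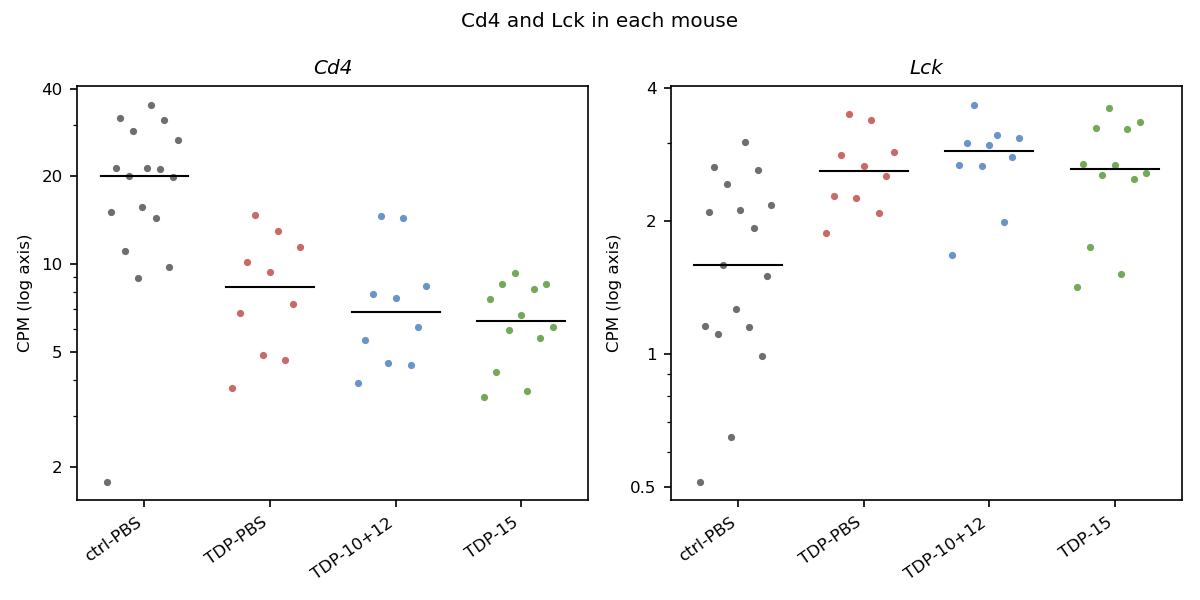
CPM of Cd4 (left) and Lck (right) per mouse on log axes in the 4 groups, with the group median (line). Cd4 medians drop from 20.0 in ctrl-PBS to 8.36, 6.86 and 6.38 in the rNLS8 groups, while Lck medians are 1.58 in ctrl-PBS and 2.60, 2.88 and 2.62.

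RefSeq places 2 start sites in Lck, and the 250 bases before each are shown because the gene rose while the CD3 genes stayed near 0. The windows are chr4:129573642-129573891 (distal) and chr4:129558373-129558622 (proximal), both on the minus strand of GRCm38.p6. Capitals mark the letters TGTGGT, bound by RUNX factors, and GGAAGT, bound by ETS factors, on either strand.
Lck distal: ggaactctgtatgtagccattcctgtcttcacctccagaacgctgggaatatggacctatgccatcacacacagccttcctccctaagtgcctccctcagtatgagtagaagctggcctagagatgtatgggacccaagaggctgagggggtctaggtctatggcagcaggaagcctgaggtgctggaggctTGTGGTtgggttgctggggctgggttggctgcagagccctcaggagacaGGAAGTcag
Lck proximal: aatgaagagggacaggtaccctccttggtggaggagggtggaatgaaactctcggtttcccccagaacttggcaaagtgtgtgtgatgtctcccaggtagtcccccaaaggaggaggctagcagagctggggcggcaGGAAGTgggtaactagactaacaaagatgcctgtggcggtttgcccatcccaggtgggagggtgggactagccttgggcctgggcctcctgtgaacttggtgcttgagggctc
The distal window holds 1 RUNX match and 1 ETS match, and the proximal window 1 ETS match. Of 32851 promoter windows of the same length, 14% hold TGTGGT and 19.7% hold GGAAGT, so these letters are common.

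Cd2, an adhesion molecule of T and NK cells (chr3:101275908-101287939), was the best counted of the sparse members. Its lowest, median and highest counts were 0, 2 and 8 in ctrl-PBS, 2, 7 and 10 in TDP-PBS, 1, 5.5 and 13 in TDP-10+12 and 0, 2 and 11 in TDP-15. It was counted in 11 of 17 ctrl-PBS mice and 30 of 32 rNLS8 mice, and in CPM 8 rNLS8 mice exceeded the highest ctrl-PBS mouse. In 36 of the 41 mice with a Cd2 count that count was even. Of 13587 genes with a count in at least 30 mice and a mean under 200 99 showed even counts in at least 80% of the mice counted, and the cause was not tested. With the counts halved and rounded up, the rNLS8 mean stood at 1.18 on the log2 scale (adjusted p = 0.0154, edgeR with no filter), as large as with the counts as deposited.

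The 3 cytotoxic members encode granule proteins. Nkg7, a membrane protein of the granules (chr7:43437138-43438246), was counted in 7 of 17 ctrl-PBS and 20 of 32 rNLS8 mice. Its lowest, median and highest counts were 0, 0 and 7 in ctrl-PBS, 0, 1.5 and 6 in TDP-PBS, 0, 1.5 and 10 in TDP-10+12 and 0, 1 and 12 in TDP-15, with full overlap apart from the 2 highest rNLS8 mice.

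Gzma, a tryptase-like granzyme (chr13:113093824-113100981), had no count in any of the 17 ctrl-PBS mice and 18 counts in 11 of 32 rNLS8 mice. These were 3 TDP-PBS mice with up to 2 counts, 3 TDP-10+12 mice with up to 2 and 5 TDP-15 mice with up to 4. Against a floor of 3 counts over the whole ctrl-PBS group, the pooled level observed in rNLS8 was 3.06 times the floor. It was 2.20, 2.16 and 4.52 times the floor in TDP-PBS, TDP-10+12 and TDP-15. These ratios rest on 4, 4 and 10 counts and carry no error for them, so they are not lower bounds. Gzmb, the granzyme that cleaves after aspartate (chr14:56258836-56262334), had 1 count in 1 ctrl-PBS mouse and 35 counts in 13 rNLS8 mice. Its highest mouse had 4 counts in TDP-PBS, 8 in TDP-10+12 and 10 in TDP-15. In CPM, 8 rNLS8 mice exceeded the control mouse with a count. Among these, TDP-PBS mouse 82 and TDP-10+12 mice 51 and 130 had 1 count each, the same as that control mouse, and exceeded it only through library scaling. Gzmb belongs to a family of similar genes, and how shared reads were counted is not given in the sources used here.

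The 250 bases before the start of the 3 cytotoxic members are shown since these genes were near 0 in ctrl-PBS and counted together in single rNLS8 mice. The windows are chr7:43436888-43437137 (plus strand) for Nkg7, chr13:113100982-113101231 (minus strand) for Gzma and chr14:56262335-56262584 (minus strand) for Gzmb, in GRCm38.p6. Capitals mark, on either strand, TGTGGT (RUNX), TCACACC (T-box factors such as T-bet), GGAAGT (ETS) and the interferon-stimulated response element, written as GAAA, any pair of letters and GAAA again.
Nkg7: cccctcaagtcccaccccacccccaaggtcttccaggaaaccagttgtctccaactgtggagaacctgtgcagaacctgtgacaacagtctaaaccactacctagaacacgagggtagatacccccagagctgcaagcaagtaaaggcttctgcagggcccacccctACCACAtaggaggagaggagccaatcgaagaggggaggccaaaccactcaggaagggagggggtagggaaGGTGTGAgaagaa
Gzma: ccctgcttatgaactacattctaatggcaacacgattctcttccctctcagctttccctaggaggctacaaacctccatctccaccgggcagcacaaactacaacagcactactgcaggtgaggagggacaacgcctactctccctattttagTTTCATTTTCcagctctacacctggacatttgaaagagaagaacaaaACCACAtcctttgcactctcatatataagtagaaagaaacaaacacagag
Gzmb: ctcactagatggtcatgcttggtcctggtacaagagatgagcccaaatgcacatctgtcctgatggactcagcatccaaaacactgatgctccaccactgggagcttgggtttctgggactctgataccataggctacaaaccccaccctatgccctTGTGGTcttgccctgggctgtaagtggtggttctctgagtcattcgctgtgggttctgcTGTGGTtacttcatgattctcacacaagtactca
The RUNX letters (14% of all windows) were found in all 3 windows, once in Nkg7, once in Gzma and 2 times in Gzmb. The windows of Cd8a, Cd3g, Cd3d and Cd3e, not shown, held no RUNX letters. Nkg7 alone held the T-box letters (3.33% of all windows) and Gzma alone the interferon element (2.98% of all windows). RefSeq windows were matched for 8 of the 10 members, all except Cd4 and Cd2.

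Whether a member was detected at all was compared over mice with a two-sided Fisher's exact test. Gzma (0 of 17 ctrl-PBS against 11 of 32 rNLS8 mice, exact p = 0.00900), Cd2 (exact p = 0.0150) and Gzmb (1 of 17 against 13 of 32, exact p = 0.0178) had the smallest unadjusted p-values. After adjustment over the 21324 genes counted in some but not all mice, these exact tests gave 0.720, 0.796 and 0.847, and 0 of the 8 members passed, with 3 under 0.05 before adjustment. The same test called 0.0657% of genes more often detected in rNLS8, Cxcl9 among them (adjusted p = 0.0229 from the exact test).

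**Figure D4:**
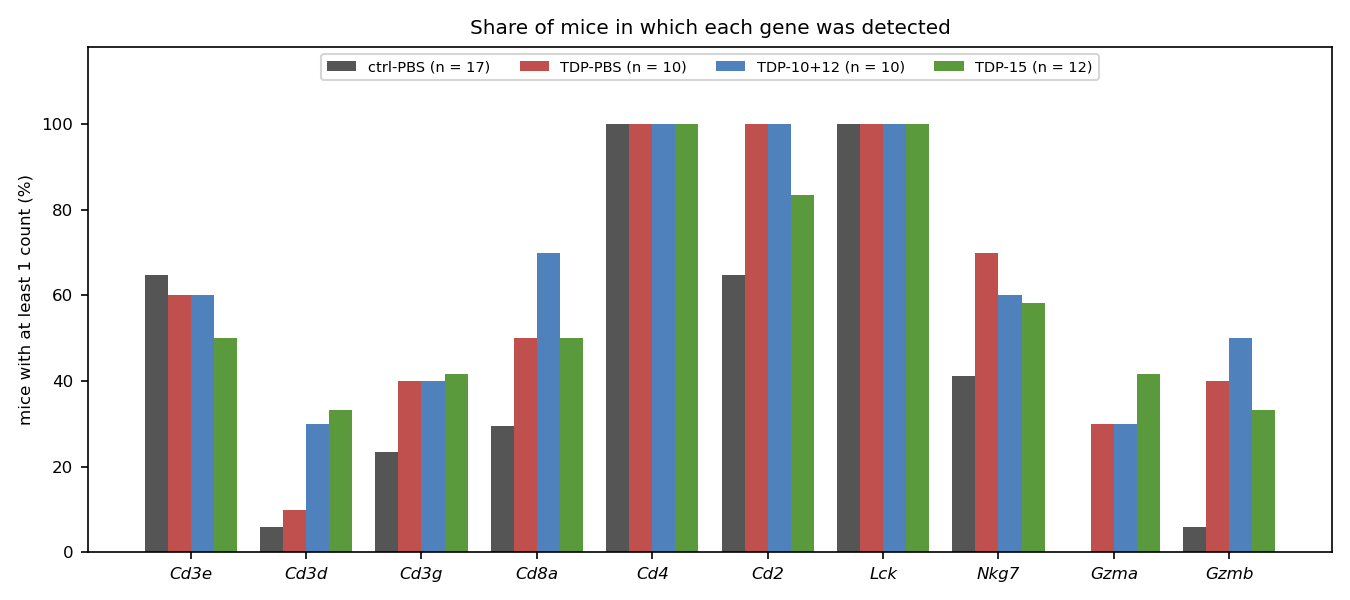
Share of mice with at least 1 count (y axis, percent) for each member in the 4 groups (bars). Cd4 and Lck stand at 100% in every group, Gzma at 0% in ctrl-PBS, and Cd3e at 64.7% in ctrl-PBS and 50 to 60% in the rNLS8 groups.

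Levels of the sparse members were also fitted by edgeR with no filter on low counts, over 39179 genes. For the rNLS8 mean 4 members were called higher: Lck, Cd2 (log2 fold change 1.18, SE 0.383, adjusted p = 0.0156), Gzma (adjusted p = 0.00295) and Gzmb (2.64, SE 0.693, adjusted p = 0.00221), against 13.0% of all genes. Gzmb rests on a single control count. Cd3g gave 1.69 (SE 0.666, adjusted p = 0.0538), Cd3d 1.13 (adjusted p = 0.212), Cd8a 1.02 (adjusted p = 0.224), Nkg7 0.93 (adjusted p = 0.272) and Cd3e -0.31 (adjusted p = 0.753), none past the threshold. DESeq2 called 3 of the 10, Cd4, Lck and Cd2 (1.22, adjusted p = 0.00488), while Gzmb had an adjusted p of 0.0773 and Gzma none, after DESeq2's own filter. The unadjusted p of Gzma by DESeq2's Wald test was 0.210, so DESeq2 did not share the edgeR call of Gzma.

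By group, the same edgeR fit with no filter called Cd2 (1.44, adjusted p = 0.0205), Gzma (adjusted p = 0.0295) and Lck higher in TDP-PBS, where 10.6% of genes were. In TDP-10+12 it called Cd2 (1.40, adjusted p = 0.0276), Gzma (adjusted p = 0.0326), Gzmb (2.81, adjusted p = 0.00710) and Lck, against 9.99% of genes. In TDP-15 it called Cd3d (1.92, adjusted p = 0.0442), Cd3g (2.58, adjusted p = 0.00627), Gzma (adjusted p = 0.00148), Gzmb (2.96, adjusted p = 0.00257) and Lck, against 11.5% of genes. DESeq2 also called Cd3g in TDP-15 (2.83, adjusted p = 0.0240), Lck in each group, and Cd2 in TDP-PBS and TDP-10+12. It gave no adjusted p for the Gzma, Gzmb and Cd3d calls above. The unadjusted p of its Wald test for Gzma was 0.467 in TDP-PBS, 0.477 in TDP-10+12 and 0.130 in TDP-15. For Gzmb it was 0.0670 in TDP-10+12 and 0.0385 in TDP-15, and for Cd3d in TDP-15 it was 0.287. In TDP-15, Cd3d was at 0.95 (adjusted p = 0.394) without mouse 54 and Gzmb at 1.82 (adjusted p = 0.0655) without mouse 126. In TDP-10+12, without mouse 47, Gzmb was at 1.60 (adjusted p = 0.156) and Gzma also had an adjusted p of 0.156. The TDP-PBS call of Gzma was lost without mouse 26 (adjusted p = 0.147), mouse 42 or mouse 217 (both 0.0601 to 0.0604), and the TDP-10+12 call of Gzma also without mouse 51 or mouse 130 (both adjusted p = 0.0661 to 0.0662). The TDP-10+12 call of Cd2 was lost without mouse 51 (adjusted p = 0.0796), mouse 313 (0.0547) or mouse 337 (0.0545). Cd3g in TDP-15 passed in each of the 49 fits that left out 1 mouse (adjusted p between 0.00197 and 0.0216), all by edgeR.

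The counts of the 7 sparse members other than Cd2 were gathered in few mice. Their sum per mouse had a lowest, median and highest value of 0, 2 and 16 in ctrl-PBS, 2, 7 and 15 in TDP-PBS, 0, 6.5 and 33 in TDP-10+12 and 0, 5 and 42 in TDP-15. At least 10 counts were found in 1 of 17 ctrl-PBS mice, 3 of 10 TDP-PBS, 3 of 10 TDP-10+12 and 5 of 12 TDP-15 mice. TDP-15 mouse 126 and TDP-10+12 mouse 47 together held 75 of the 282 rNLS8 counts (26.6%), and 18 of the 35 Gzmb counts (51.4%), 22 of the 71 Nkg7 counts (31.0%) and 6 of the 18 Gzma counts (33.3%).

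Mouse 126 had 12 counts of Nkg7, 10 of Gzmb, 6 of Cd3g, 5 of Cd3e, 5 of Cd8a and 4 of Gzma, and also the highest rNLS8 counts of Cxcl10 (553), Ccl5 (288) and the integrin Itgax (442). Mouse 47 was the only mouse in which all 7 were counted, with 126 counts of Cxcl10 and 76 of Itgax, near the rNLS8 medians of 126 and 65. TDP-10+12 mouse 301 and TDP-15 mouse 269 had none of the 7, at 145 and 226 counts of Cxcl10. The highest ctrl-PBS mouse, 137, had 7 counts of Cd3e, 7 of Nkg7 and 2 of Cd3d, and was also the highest of all mice for the neutrophil genes S100a8 (104) and Ngp (610). Without this mouse Cd3d was called in the rNLS8 mean (2.10, adjusted p = 0.0117), and without ctrl-PBS mouse 131 Cd8a was (1.74, adjusted p = 0.0279), both by edgeR with no filter.

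Correlations over the 32 rNLS8 mice were computed for the 6 members counted in at least 16 of them, as 15 pairs of members and 24 pairs with Cxcl10, Ccl5, Cst7 and Itgax, on log2 CPM with a permutation test of 100000 resamples and adjustment over all 39. No pair of members passed, and the closest was Cd3e with Nkg7 (Pearson's r = 0.41, permutation p = 0.0196, adjusted p = 0.225, Spearman's rho = 0.45, permutation p = 0.0102, adjusted p = 0.186). Nkg7 with Itgax, which encodes CD11c, passed by Pearson's r (0.55, permutation p = 0.00117, adjusted p = 0.0456) and not by Spearman's rho (0.43, permutation p = 0.0143, adjusted p = 0.186). Without the 2 mice farthest from the median of Nkg7, r was 0.43. Within groups Spearman's rho of this pair was -0.41 in TDP-PBS, 0.65 in TDP-10+12 and 0.78 in TDP-15, so it did not hold in all 3.

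The tested genes most like the summed CPM of the 3 CD3 genes over the 32 rNLS8 mice, members left out, were Syt1 (Spearman's rho 0.68), Zfp251 (0.67), Anks6 (0.66), Usp25 (0.66) and Pdcd11 (0.65). Syt1 encodes the calcium sensor of synaptic vesicles, and none of the 5 is on the lists of lymphocyte genes. Only genes past the filter were ranked, among them 14 of 34 T cell receptor pathway genes and 4 of 28 NK and cytotoxic genes. The absence of lymphocyte genes from the 5 was thus largely set by the filter and says little. The CD3 sums were also small, at 0 to 16 counts per mouse, and the 5 were picked as the highest of all genes tested.

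Immunization was compared within the bigenic mice. None of the 10 members passed the test between the immunized groups and TDP-PBS, singly or as a mean, or between TDP-10+12 and TDP-15. In these 4 comparisons edgeR called 0% of the 18220 genes, with 552 to 1244 of them at an unadjusted p under 0.05, and DESeq2 called 0 genes in 3 comparisons and 2 genes between the peptide groups. Of the members, 0 had an unadjusted p under 0.05 by edgeR with the filter, by edgeR without it, or by DESeq2. For the mean of both immunized groups against TDP-PBS, the log2 difference was -0.28 for Cd4 (95% interval -0.79 to 0.22) and 0.03 for Lck (95% interval -0.33 to 0.38). For Lck the interval thus leaves out a change as large as the 0.64 seen between genotypes.

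The sparse members left wider intervals, with no filter, again with 0% of 39179 genes called. The difference was 0.74 for Gzmb (95% interval -0.72 to 2.20), 0.42 for Gzma (-1.16 to 1.996), -0.00239 for Nkg7 (-1.29 to 1.29), -0.22 for Cd8a (-1.496 to 1.05), 0.86 for Cd3g (-0.66 to 2.38), 1.11 for Cd3d (-0.45 to 2.67), 0.43 for Cd3e (-0.93 to 1.79) and -0.40 for Cd2 (-1.24 to 0.45), all on the log2 scale. The upper bounds of Gzmb, Gzma, Cd3g and Cd3d thus lay near or above 2 log2 units, while no lower bound reached below -1.496. Leaving out 1 mouse moved these differences widely, with none past the threshold: Gzmb was at 0.14 without TDP-10+12 mouse 47 and 1.57 without TDP-PBS mouse 217, Gzma at 0.13 without mouse 47 and 1.03 without TDP-PBS mouse 26, and Cd3d at 0.63 without TDP-15 mouse 54 and 2.47 without mouse 217. Cd3e stayed within 0.0838 (without TDP-10+12 mouse 313) and 0.59, Cd3g within 0.61 and 1.29, Cd2 within -0.52 and -0.29, and Cd4 within -0.37 (without TDP-PBS mouse 82) and -0.16 (without TDP-PBS mouse 270). Cd8a ran from -0.51 (without TDP-15 mouse 126) to 0.17 (without mouse 217) and Nkg7 from -0.34 (without mouse 126) to 0.27 (without TDP-PBS mouse 196). Between peptide groups, Cd8a was 1.10 higher in TDP-10+12 than in TDP-15 (95% interval -0.41 to 2.62) and Cd3g 1.21 lower (log2 difference -1.21, 95% interval -2.79 to 0.36), neither past the threshold.

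**Figure D5:**
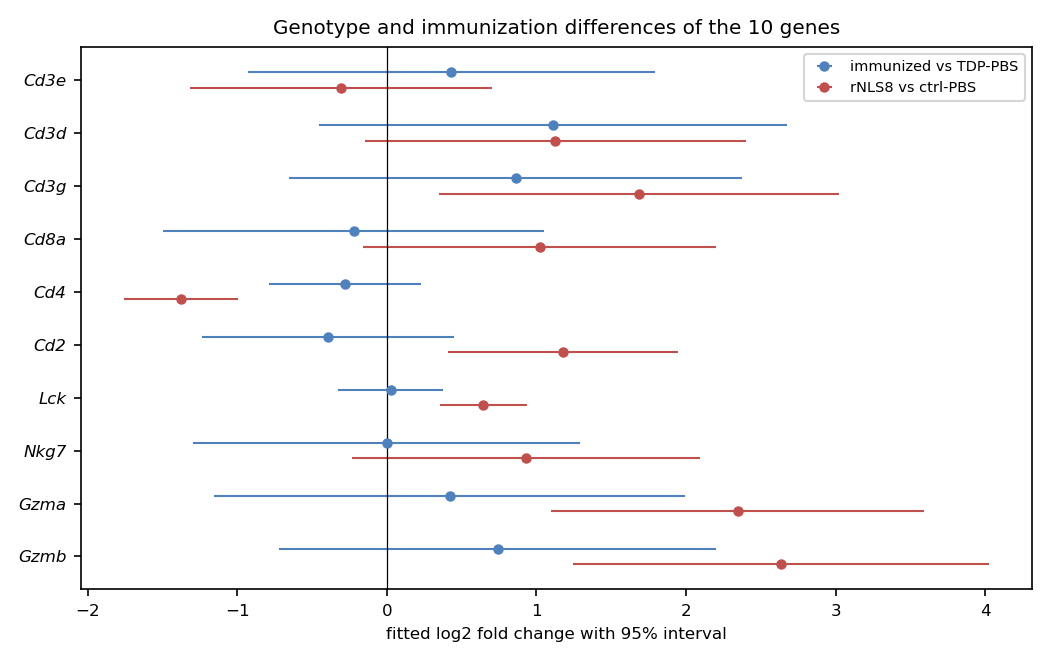
Fitted log2 fold change (x axis) with its 95% interval for each member, for the rNLS8 mean against ctrl-PBS (red) and for both immunized groups against TDP-PBS (blue). Cd4 and Lck come from the filtered fit, the others from the fit with no filter, where the Gzma value against ctrl-PBS depends on the prior count because all control mice are at 0. All 10 blue intervals include 0.

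Other genes of the same cells were taken from lists, whose counts are read against the 27.1% of all tested genes called higher and the 27% called lower in the rNLS8 mean. Of 34 genes of the T cell receptor pathway, 27 were in the table and 14 passed the filter, of which 5 were higher and 2 lower in the rNLS8 mean, with a median log2 fold change of 0.45 beside 0.00148 over all genes tested. The checkpoint receptor Lag3 rose by 1.37 (SE 0.175, adjusted p = 2.87e-09), Tigit, another checkpoint receptor, by 0.73 (SE 0.280, adjusted p = 0.0253), and the receptor subunit Il7r by 0.65 (SE 0.223, adjusted p = 0.0117). Cd6, a surface receptor of T cells, fell by 1.01 on the log2 scale (log2 fold change -1.01, SE 0.279, adjusted p = 0.00180). The kinase Zap70 was at -0.05 (SE 0.138, adjusted p = 0.780) and the adaptor Lat at 0.48 (SE 0.251, adjusted p = 0.106), both by edgeR.

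Of 28 NK and cytotoxic genes 4 passed the filter and 0 were called by edgeR in the rNLS8 mean (1 at an unadjusted p under 0.05), with a median of 0.30. By group, 0 of the 4 were higher in TDP-PBS, 0 in TDP-10+12 and 2 in TDP-15, beside 21.9%, 20.8% and 23.6% of all genes tested. With no filter 27 could be fitted, and in the rNLS8 mean 2 were higher and 2 lower. In that unfiltered fit 13.0% of all genes were called higher, and the share called lower is not given here. The pore protein gene Prf1 was counted in 2 of 17 ctrl-PBS and 9 of 32 rNLS8 mice, the NK receptor Ncr1 in 3 and 14, Klrb1c in 6 and 10, Klrd1 in 4 and 12, and the cytokine Ifng in 3 and 10. None of these had more than 4 counts in a mouse. The CD3 partner Cd247 was counted in 16 of 17 and 31 of 32 mice, with medians of 4 and 5 counts, and Cd5 in 14 and 30, with medians of 2 and 4. Of 11 genes of helper T cell subsets 5 were tested, with a median log2 fold change of 0.11, and edgeR called 1 of them.

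Several genes that draw or hold lymphocytes rose. Of 25 genes of homing and chemotaxis 17 were tested, 9 were higher and 3 lower, beside 27.1% and 27% of all genes. Cxcl10 rose by 5.55 (SE 0.378, adjusted p = 5.69e-18), from a median of 2 counts in ctrl-PBS to 126 in rNLS8, and Ccl5 by 5.25 (SE 0.354, adjusted p = 3.58e-18), from 1 to 82. Cxcl9 rose by 2.86 (SE 0.494, adjusted p = 2.39e-06) and the adhesion receptor Cd44 by 1.60 (SE 0.182, adjusted p = 1.20e-10). The 3 that fell, named after their values were seen, were the integrin chain Itga4 (-0.46, SE 0.109, adjusted p = 0.000333) and the sphingosine phosphate receptors S1pr1 (-0.37, SE 0.0460, adjusted p = 1.22e-09) and S1pr5 (-0.22, SE 0.0804, adjusted p = 0.0187). Cxcr3, the receptor for Cxcl9 and Cxcl10, was counted in 11 of 17 ctrl-PBS and 28 of 32 rNLS8 mice, with medians of 1 and 2 counts.

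Markers of other cells moved beside these genes, and their part in the members' values was not tested. Of 18 genes of microglia and other leukocytes 15 rose and 2 fell, and the median log2 fold change was 0.51. Of 12 genes of meninges, choroid plexus and olfactory bulb 11 were tested, 7 were higher and 1 lower, and their summed level spanned 80.04 to 486 CPM in ctrl-PBS and 114 to 1830 in rNLS8. Of 17 neutrophil and monocyte genes 6 were tested, 2 were higher and 2 lower, with summed levels of 13.8 to 81.8 and 13.5 to 50.6 CPM. Of 7 genes of cortical neurons 1 was higher and 4 lower, with a median of -0.08. Of 6 red blood cell genes 5 were tested and edgeR called 0 of them, with 0 at an unadjusted p under 0.05, and Hbb-bs had medians of 398 and 337 counts. Of 23 B and plasma cell genes 14 were in the table and 6 tested, of which 2 were higher, among them Cd22 (2.26, SE 0.293, adjusted p = 3.94e-09), which microglia can also express. The defining B cell gene Ms4a1 was at a median of 0 in both genotypes, and Cd79a gave -0.25 (SE 0.155, adjusted p = 0.169).

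The genotype difference was also compared between sexes in the 27 PBS mice. The interaction was 0.82 on the log2 scale for Lck (p = 0.0568, adjusted p = 0.795) and -0.26 for Cd4 (p = 0.658, adjusted p = 0.952), and edgeR called 0 of 18589 genes, with 1167 at an unadjusted p under 0.05.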

How the data were processed

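RNA of about 30 mg of neocortex per mouse was sequenced as 100 bp paired-end reads. The authors aligned them to GRCm38.p6 and deposited a table of raw counts for each gene. The submitters' processing notes name HISAT2, Bowtie2 and RSEM, with no roles, and the counting and strand settings are not given in the sources used here. Groups came from the labels. The members and gene lists were chosen with earlier results of these data known. Genes passed filterByExpr (edgeR 4.0.16, 10 counts, 15 summed), TMM scaled the libraries, and 1 model without covariates held all 49 mice (glmQLFit, glmQLFTest, two-sided, adjusted p under 0.05), tested on simulated data. Levels per kilobase used exon unions of GENCODE vM21. Positions and promoters are from RefSeq (GRCm38.p6). Alternatives were DESeq2 1.42.0, limma 3.58.1 (voom), other scalings and filters, sex as a covariate, and leaving out each mouse. Named genes were the members, up to 4 called genes per list by size, fixed defining markers and the 5 genes most like a pattern. The striatal list, the likeness of Cd4 and Lck, the halved Cd2 counts and the unfiltered fits without 1 mouse were added after seeing the data. Floors cover counting error only. A few genes of the lists are not reported here.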

Additional observations from a re-analysis of the deposited data

Results flagged for a closer look

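In the groups of 10 mice, 20 sets of values were checked for a mouse far from the rest (the gap to its neighbour, as a share of the range, above Dixon's critical value), and 8 were found, where chance gives about 1 in 20 for continuous values. These values are small counts with many at 0, to which that rate does not apply: Cd3d in TDP-PBS is 0 in 9 mice and 2 in 1. In TDP-PBS the highest mouse stood apart for Cd3d (mouse 217, 0.0966 CPM, 2 counts), Gzma (mouse 26, 0.104 CPM, 2 counts, in a library with 23361 counts of Ttr) and Gzmb (mouse 217, 0.193 CPM, 4 counts). In TDP-10+12 mouse 313 stood apart for Cd3e (0.397 CPM, 8 counts). Mouse 47 of the same group stood apart for Cd3d (0.0978 CPM, 2 counts), Nkg7 (0.489 CPM, 10 counts), Gzma (0.0978 CPM, 2 counts) and Gzmb (0.391 CPM, 8 counts). Cd4, Lck, Cd2, Cd8a and Cd3g had no such mouse in these groups. With counts this low, a gap of this kind can rest on 1 or 2 reads.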

How the results depend on the processing

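The calls of Cd4 and Lck against ctrl-PBS held under other scalings, filters and tools, with sex as a covariate, and without any single mouse (Cd4 -1.44 to -1.30 and Lck 0.58 to 0.72 in the rNLS8 mean). With no filter on low counts the members called went from 2 to 4 in TDP-PBS, 5 in TDP-10+12, 6 in TDP-15 and 5 in the rNLS8 mean, since 8 more were tested. Of the sparse members, Cd3g passed in the rNLS8 mean in 23 of 49 fits without 1 mouse, and Cd3d in TDP-15 failed in 20 of 49. DESeq2 gave Gzmb 2.26 in the rNLS8 mean, not past the threshold. For TDP-10+12 the unfiltered count of called members ran from 3 to 6 when single mice were left out. It was 3 without mouse 47 or mouse 51.

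Sign changes occurred only for differences not past the threshold. With the striatal genes as a covariate Lck was 0.0266 in TDP-15 against TDP-PBS and Cd4 -0.0352 in TDP-10+12 against TDP-15, and DESeq2 gave Nkg7 0.0019 in the immunized mean. Leaving out single mice gave -0.98 to 1.36 for Cd3d in TDP-PBS, -0.61 to 0.41 for Cd3e in TDP-10+12, -0.17 to 1.12 for Cd8a in TDP-15, -0.53 to 0.0260 for Cd3e in the rNLS8 mean, -0.0733 to 0.0369 for Lck in TDP-15 against TDP-PBS, and -0.0195 to 0.0798 for Lck, -0.51 to 0.17 for Cd8a and -0.34 to 0.27 for Nkg7 in the immunized mean. The cause was not tested. With a prior count of 0.5, 0 of the 24 pairs with inflammatory genes passed by Pearson's r. Halving the Cd2 counts left its rNLS8 mean at 1.18 (adjusted p = 0.0154, edgeR). Counts of at least 3, or thinning to 17775738 counts, gave 0 members called by detection. No paired analysis was possible because each mouse has its own number and no 2 groups share one.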
